A study of Homo sapiens with 8 samples.

Results

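Collagen chain genes were examined for peaks of HP1a and HP1b, a pair of paralogous heterochromatin proteins encoded by CBX5 and CBX1. The members were the protein-coding genes on chromosomes 1 to 22 whose symbol is COL, a number, A and a number. There were 42 of them among 19970 protein-coding genes of RefSeq, and they were taken in 9 structural classes. The libraries came from MCF10A, an immortalised but non-tumorigenic human breast epithelial line, and were made by ChIP-seq, in which cross-linked chromatin is pulled down with an antibody and sequenced. The 4 groups held 2 libraries each: HP1a ChIP in cells with an HP1B knock-down, HP1a ChIP in WT cells, HP1b ChIP in cells with an HP1A knock-down, and HP1b ChIP in WT cells. WT cells carried no treatment, per the labels. How the knock-downs were made, whether a knock-down line was 1 clone, how much protein was left and whether replicates were separate cultures are not stated in these sources. The p-values therefore measure only the spread between these libraries, which may be technical. Peak lists hold no RNA or protein level, so neither the knock-downs nor the expression of any collagen could be checked.

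Collagens are extracellular matrix proteins built from 3 chains wound into a triple helix. Fibrillar collagens such as types I and III form the fibres of connective tissue, and are made mostly by fibroblasts. Type IV collagen forms the sheet-like network of the basement membrane on which breast epithelium rests. Type VII collagen anchors that membrane to the tissue beneath, and type XVII is a transmembrane collagen of the hemidesmosomes of basal epithelial cells. FACIT collagens (fibril-associated collagens with interrupted triple helices) decorate fibrils. HP1 proteins bind histone H3 methylated on lysine 9 and are known for their part in compact, mostly silent chromatin.

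For each library the covered share of a gene was measured, which is the percentage of bases in the gene and 1 kb on each side that lay under a listed peak. The HP1a lists of the HP1B knock-down held 19638 and 19092 peaks, against 134058 and 115564 in WT. The HP1b lists of the HP1A knock-down held 159536 and 225991 peaks, against 239563 and 240090 in WT. Because the lists differed so much in length, tests used relative coverage, the covered bases of a gene per Mb of all covered bases of its library. Because the lists hold peaks and not reads, depth is unknown and no share has a counting error.

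A single gene, COL22A1, stood apart from all the others. COL22A1 encodes the type XXII chain, a FACIT collagen known from tissue junctions such as that between muscle and tendon, and lies at chr8:138588235-138914041 (GRCh38). Its covered share was 13.4 and 15.1% in the HP1a lists of the HP1B knock-down, against 21.0 and 19.8% in WT. For HP1b the covered share was 78.3 and 77.6% in the HP1A knock-down, against 42.8 and 41.8% in WT. The groups did not overlap in either comparison, with less of the gene under HP1a peaks in the HP1B knock-down and more of it under HP1b peaks in the HP1A knock-down.

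Group means for COL22A1 were 14.3 ± 1.21% in the HP1a ChIP of the HP1B knock-down and 20.4 ± 0.817% in that of WT (SD, n = 2 each). They were 78.0 ± 0.476% in the HP1b ChIP of the HP1A knock-down and 42.3 ± 0.720% in that of WT (SD, n = 2 each). An exact permutation test of the covered share gave a two-sided p of 0.333 in both comparisons, the smallest that 2 against 2 libraries allow. Among all 19970 genes ordered by mean covered share, COL22A1 was number 10 in the HP1a ChIP of the HP1B knock-down and number 95 in that of WT. It was number 6 in the HP1b ChIP of the HP1A knock-down and number 89 in that of WT. In each of the 4 groups, both libraries of COL22A1 were above both libraries of the next collagen gene.

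COL22A1 held a large part of the collagen peak bases. Of all peak-covered bases in collagen genes, it held 67.2 and 75.5% in the HP1a lists of the HP1B knock-down, against 32.9 and 37.2% in WT. In the HP1b lists it held 59.4 and 47.5% in the HP1A knock-down, against 35.0 and 32.5% in WT. In 5 of the 8 lists the other 41 genes together held more, and pooled values are given without COL22A1 below.

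**Figure D1:**
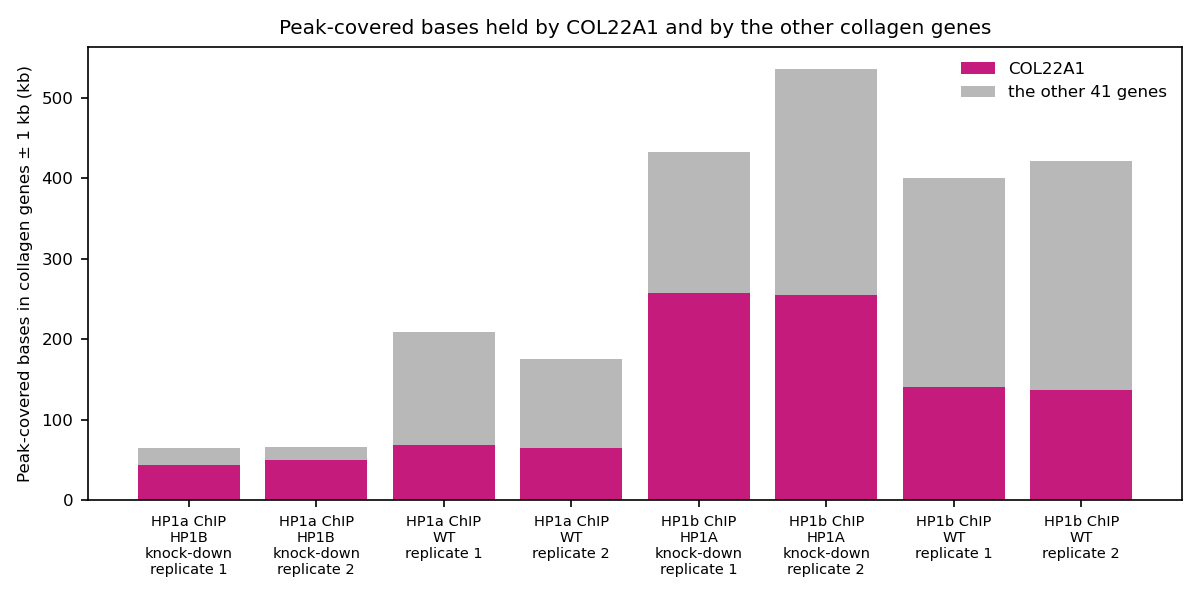
Peak-covered bases (kb) in the collagen genes and 1 kb on each side, 1 bar per library, with the part in COL22A1 and the part in the other 41 genes stacked. COL22A1 makes up 67.2 and 75.5% of the bars of the HP1B knock-down and 32.9 and 37.2% of those of HP1a in WT.

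The HP1b peaks of COL22A1 were fewer and wider in the HP1A knock-down. There were 62 and 59 of them, against 106 and 116 in WT, with a median width of 2735.5 and 2726 bases, against 927 and 881 bases. The widest reached 18740 and 22989 bases in the HP1A knock-down, against 7523 and 4663 in WT. The authors' fold enrichment of these peaks stayed in a narrow range, with medians of 3.17 and 3.35 in the HP1A knock-down and 3.08 and 3.23 in WT. Most of these peaks overlapped a peak of the other replicate, 93.5 and 94.9% in the HP1A knock-down and 78.3 and 76.7% in WT. The HP1a peaks were also fewer in the HP1B knock-down, 58 and 63 against 87 and 78 in WT, but their median width was 592 and 608 bases, against 678 and 699.5 in WT.

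In windows of 10 kb along the 32 windows of COL22A1, more than 50% of the bases were covered in 31 windows of both HP1b libraries of the HP1A knock-down, against 13 and 7 windows in WT. The median window was covered to 80.5 and 77.0% in the HP1A knock-down, against 40.6 and 39.9% in WT. No window passed 50% in any HP1a library. Coverage ran along the whole gene and did not stop at its edges. In the 500 kb on each side it was 4.65 and 7.65% in the HP1a lists of the HP1B knock-down, against 14.1 and 14.9% in WT, and 46.1 and 42.8% in the HP1b lists of the HP1A knock-down, against 29.2 and 27.7% in WT.

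**Figure D2:**
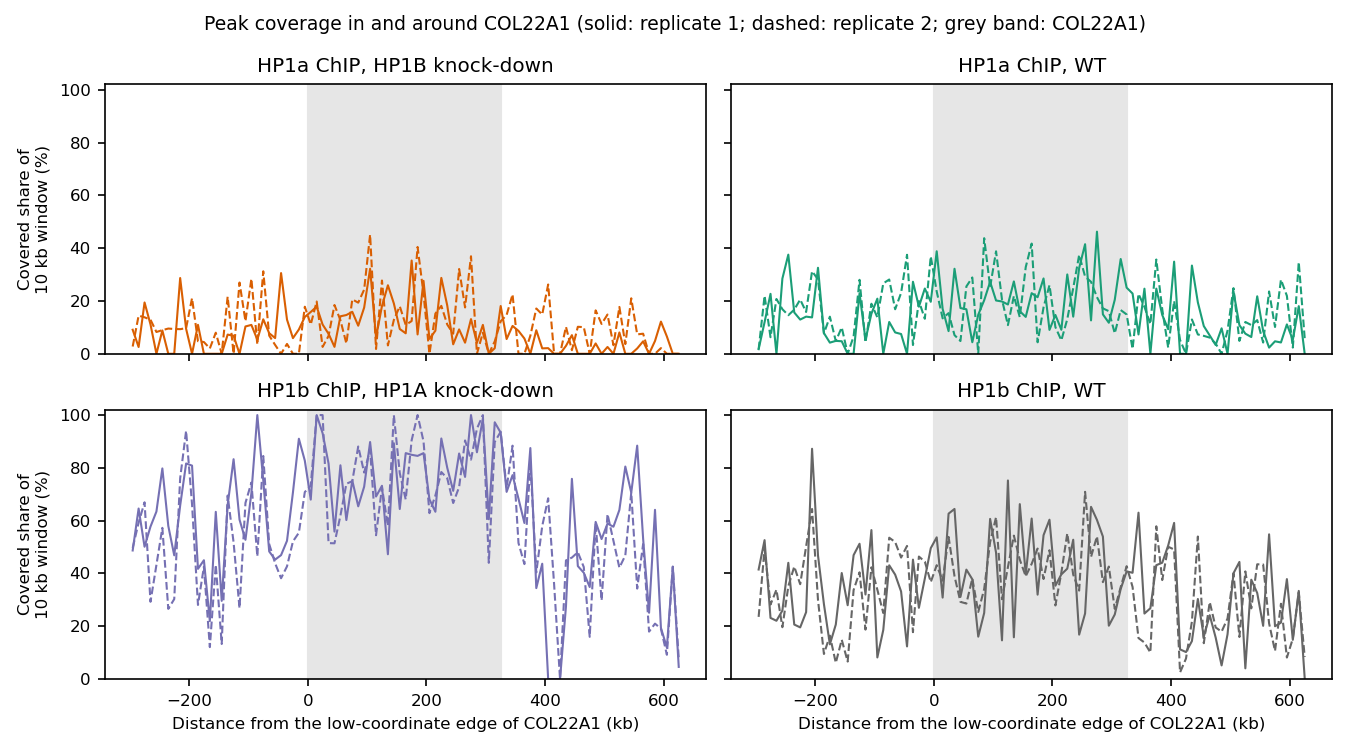
Covered share (%) of 10 kb windows against the distance in kb from the low-coordinate edge of COL22A1, 1 panel per group, with replicate 1 as a solid and replicate 2 as a dashed line. The grey band is the gene: in the HP1b ChIP of the HP1A knock-down 31 of its 32 windows are over 50% covered in both libraries, against 13 and 7 windows in WT.

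FAM135B, the next protein-coding gene on the low-coordinate side, had a covered share of 60.3 and 53.3% in the HP1b lists of the HP1A knock-down, against 34.3 and 33.1% in WT. KCNK9, the next one on the other side and a potassium channel gene, had 7.29 and 27.9% in the HP1A knock-down, against 17.4 and 16.3% in WT, so its groups overlapped. Within 300 kb of the gene both sides had more HP1b coverage in the HP1A knock-down: the mean over windows of 10 kb was 61.5 and 50.4%, against 34.7 and 33.6% in WT, on the low-coordinate side. On the other side it was 47.2 and 43.5%, against 28.6 and 26.5% in WT. The surroundings thus moved with COL22A1, and their part in its values was not tested. MCF10A is known to carry extra copies of parts of the long arm of chromosome 8, and copy number cannot be read from these lists.

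Across the family, collagen genes had peaks more often than the average gene, and they are long: the median length was 133.0 kb, against 24.2 kb over all genes. A peak in both HP1a libraries of the HP1B knock-down was listed for 13 of 42 members (31.0%), against 9.59% of all genes and 13.7% of the 11538 genes within the members' range of lengths. In WT the HP1a count was 27 members (64.3%), against 39.8 and 59.9%. HP1b peaks in both libraries were listed for 34 members in the HP1A knock-down (81.0%), against 39.3 and 56.5%, and for 36 in WT (85.7%), against 55.6 and 77.4%. The genes of that range had a median length of 51.4 kb, still below that of the members, so length was not matched.

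Pooled over the 41 members other than COL22A1, the covered share was 0.348 and 0.261% in the HP1a lists of the HP1B knock-down, against 2.27 and 1.78% in WT. Over all genes the same share was 0.310 and 0.284% in the HP1B knock-down, against 2.25 and 1.83% in WT. In the HP1b lists the 41 members had 2.85 and 4.56% in the HP1A knock-down, against 4.22 and 4.60% in WT, and all genes had 3.11 and 4.71%, against 4.63 and 4.84%. With COL22A1 set aside, the family as a whole lay close to the average of all genes in every list. The exact permutation p for the 41 members was 0.333 in the HP1B knock-down and 0.667 in the HP1A knock-down (two-sided).

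**Figure D3:**
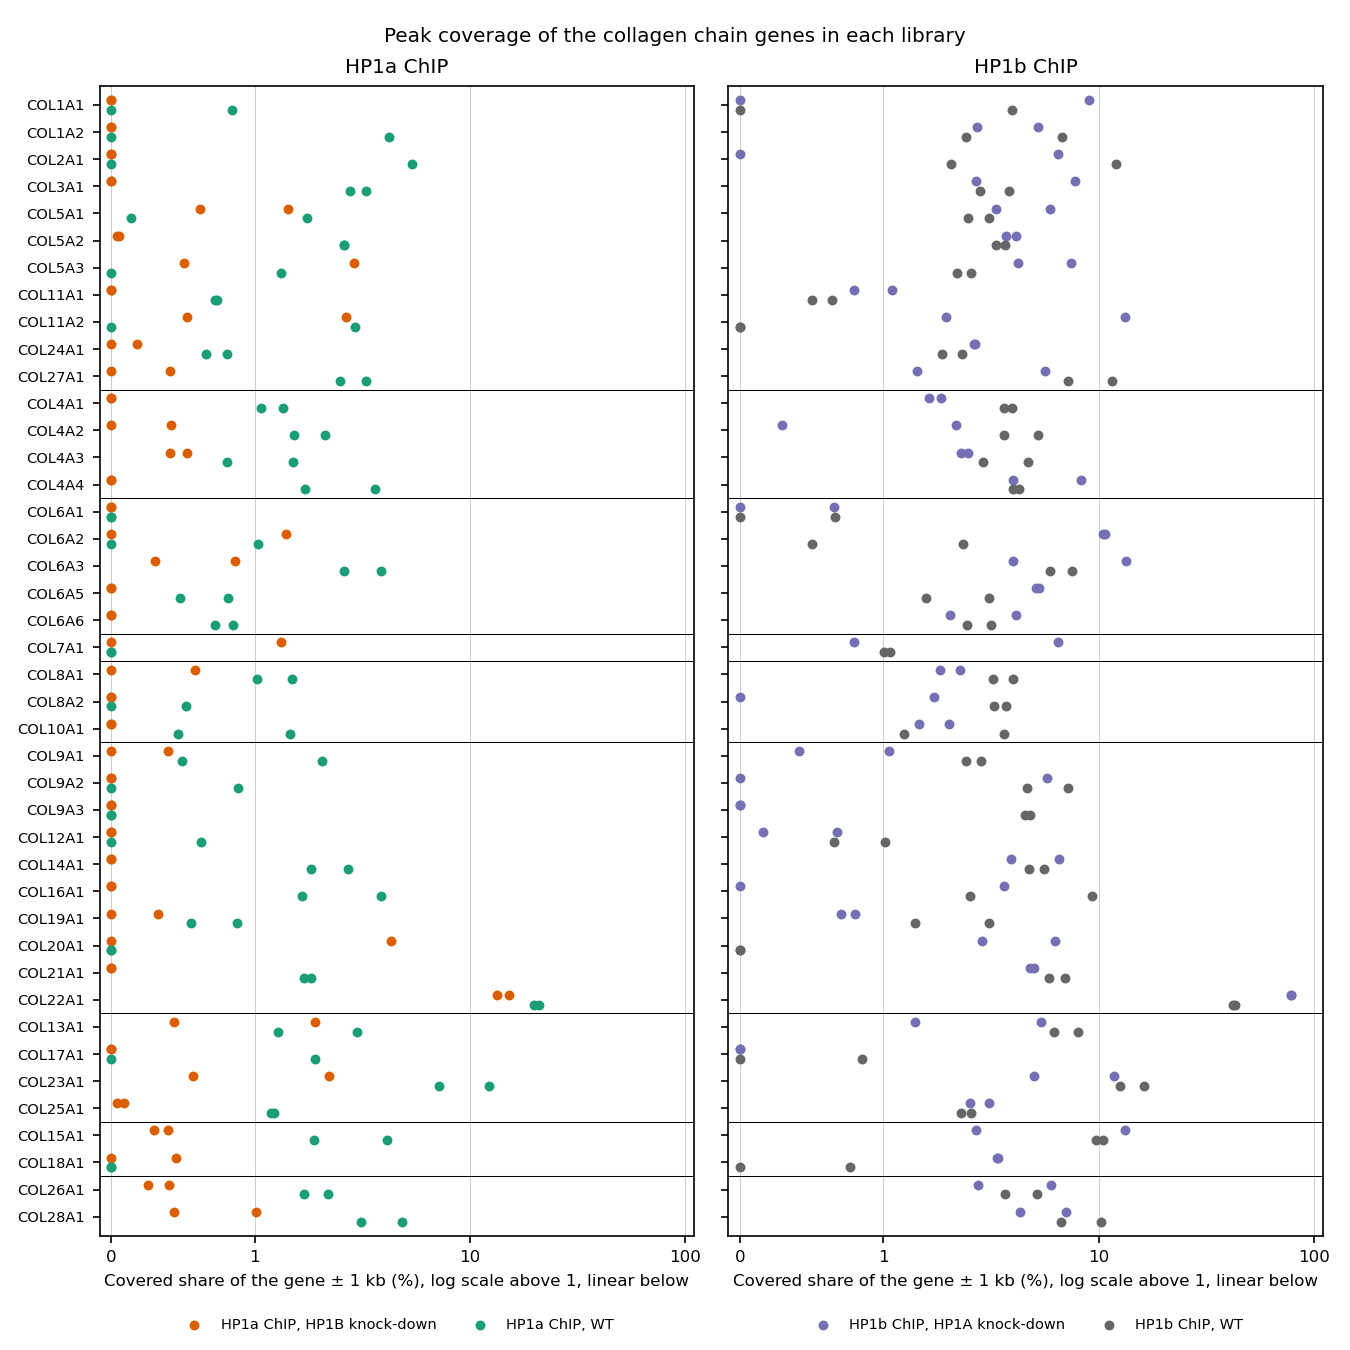
Covered share (%) of each of the 42 collagen genes and 1 kb on each side, 1 point per library, HP1a ChIP on the left and HP1b ChIP on the right, with lines between structural classes. The axis is logarithmic above 1% and linear below. COL22A1 is the rightmost gene of both panels, at 13.4 to 21.0% for HP1a and 41.8 to 78.3% for HP1b.

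The first comparison asked whether HP1a coverage of the collagen genes changed with HP1B knocked down. Of the 42 members, 30 had peaks in 2 or more of the 4 libraries and were fitted with limma over all genes (Benjamini-Hochberg, threshold 0.05). COL22A1 was the single member called higher in relative coverage in the HP1B knock-down, and 10 were called lower: COL3A1, COL5A2, COL11A1, COL4A1, COL4A4, COL6A5, COL6A6, COL14A1, COL16A1 and COL21A1. Over all 8877 genes fitted, 1.7% were called higher and 26.9% lower. The 10 lower members are 33.3% of the 30, near that background. The median log2 change was −0.92 over the 30 members, against −1.03 over all genes fitted. Relative coverage of both HP1B knock-down libraries was above both WT libraries in 5 members, against 9.23% of all genes fitted, and below both in 12, against 51.9%. On covered share without scaling, no member was above WT and 25 of the 30 were below (83.3%), against 79.2% of all genes fitted.

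Of the 10 members called lower, 9 had no peak in either HP1a library of the HP1B knock-down, so no fold is given for them. COL5A2 was the exception, with a log2 change of −2.66 (SE 0.48, limma adjusted p = 0.0365). Relative coverage of COL22A1 had a log2 change of 2.21 (SE 0.10, limma adjusted p = 0.0308), although its covered share was lower in both knock-down libraries. Without scaling to the total coverage of the library, its log2 change was −0.52 (limma adjusted p = 0.0273), so its direction depends on the scaling. That change of scale moved the median of all genes to −2.04, against −1.03 with scaling. Leaving out WT replicate 1 or WT replicate 2 left 1 WT library. It ended every call among the members and nearly all calls among all genes fitted. Over its 14 alternatives the log2 change of COL22A1 ran between −0.52 and 2.31.

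A simpler count asked where listed peaks went missing. A gene was called emptied if both WT libraries had a peak and neither knock-down library did. HP1a peaks were emptied from 10 of the 27 members with a peak in both WT libraries (37.0%), against 47.0% of all genes and 46.2% of genes within the members' range of lengths. These were the 9 members above and COL10A1. Without WT replicate 2 the count was 16 of 35 members, with no share over all genes given for that setting. Another 11 members kept a peak in all 4 libraries: COL5A1, COL5A2, COL4A3, COL6A3, COL22A1, COL13A1, COL23A1, COL25A1, COL15A1, COL26A1 and COL28A1. None of the 5 members without an HP1a peak in WT gained one in both knock-down libraries, against 0.728% of all genes. Without WT replicate 1 there were 2 such members of 13, and without replicate 1 of the HP1B knock-down 3 of 5. No share over all genes is given for these settings either.

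The shorter knock-down lists bear on these counts. When every HP1a list was shortened to its 19092 strongest peaks, 6 of 12 members were emptied (50%), against 21.8% of all genes. In the opposite direction 5 of 22 members then had a peak in both knock-down libraries and in neither WT library (22.7%), against 2.98% of all genes. Shares within the members' range of lengths were not taken at this setting, and the members are longer than the average gene. The 5 members filled at that setting were COL5A1, COL5A3, COL11A2, COL4A3 and COL15A1. No member passed the test at that setting.

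HP1a peaks in the 41 other members did not recur in the HP1B knock-down. None of the 41 peaks of replicate 1 was met by any of the 33 peaks of replicate 2 with at least 1 base of overlap. In WT, 14.8 and 17.3% of HP1a peaks in these genes were met by the other replicate. Over all genes the share was 5.96 and 6.38% in the HP1B knock-down, against 16.4 and 20.02% in WT. In COL22A1 itself 43.1 and 38.1% of HP1a peaks were met in the HP1B knock-down, against 40.2 and 44.9% in WT. HP1a peaks that a member "kept" in the HP1B knock-down thus lay at different places in the 2 libraries for every member except COL22A1.

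The second comparison asked whether HP1b coverage changed with HP1A knocked down. Of the 42 members 41 were fitted, and none passed the threshold in limma, as none did among all 13100 genes fitted (0.0%). At an unadjusted p under 0.05 there were 10 of the 41 members, 7 higher and 3 lower. Over the 13100 genes fitted there were 3247, 653 higher and 2594 lower. The median log2 change was 0.04 over the 41 members, against −0.46 over all genes fitted. COL22A1 had a log2 change of 1.06 (SE 0.20, limma adjusted p = 0.147). It passed the threshold when replicate 1 of the HP1A knock-down was left out (log2 0.81, adjusted p = 0.000724) or replicate 2 (log2 1.30, adjusted p = 2.21e-08), where the remaining library is assumed to vary like the others. Over its 14 alternatives the adjusted p ran between 2.21e-08 and 0.622, and the log2 change was above 0 in all of them. Without replicate 2 of the HP1A knock-down, the longer of the 2 lists, 10 members passed the threshold, 4 higher and 6 lower, against 2.44% of all genes higher and 15.1% lower at that setting.

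HP1b peaks were emptied from 1 of the 36 members that had them in both WT libraries (2.78%), against 14.2% of all genes and 10.2% of genes within the members' range of lengths. That member was COL9A3, chosen here after its values were seen. Both members with no HP1b peak in WT, COL11A2 and COL20A1, had peaks in both libraries of the HP1A knock-down, while 4.21% of all such genes did, and 7.54% of those within the members' range of lengths. Both of them also did so when all HP1b lists were shortened to one length, but neither did with a −log10 p of at least 4 or a −log10 q of at least 2, where other members did. Without replicate 2 of the HP1A knock-down 5 of 36 members counted as emptied, and without WT replicate 1 there were 2 of 38. No share over all genes is given for these settings.

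Relative HP1b coverage of both HP1A knock-down libraries was above both WT libraries in 12 of 41 members (29.3%), against 13.3% of all genes fitted. These were COL5A1, COL5A3, COL11A1, COL11A2, COL24A1, COL4A4, COL6A2, COL6A5, COL20A1, COL22A1, COL25A1 and COL18A1. Both were below WT in 10 members (24.4%), against 40.0% of all genes fitted. These were COL27A1, COL4A1, COL4A2, COL8A1, COL8A2, COL9A1, COL9A3, COL19A1, COL13A1 and COL23A1. The genes above WT were a larger part of the fitted collagen genes than of all genes fitted, and those below a smaller part. Members are longer than the average gene, and no share within their range of lengths was taken for this count. Some members, such as COL4A1 and COL4A2, also have overlapping windows, so the contrast was not tested as a trait of collagen genes.

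The third comparison set HP1b against HP1a in WT cells. Of the 42 members 38 were fitted and none passed the threshold in limma, as none did among all 13089 genes fitted (0.0%). At an unadjusted p under 0.05 there were 4 of the 38 members, 2 higher and 2 lower for HP1b. Over the 13089 genes fitted there were 1640, 1128 higher and 512 lower. The median log2 change was 0.26 over the members, against 0.10 over all genes fitted. COL22A1 had a log2 change of −0.23 (SE 0.15, limma adjusted p = 0.634), and without scaling it was 1.05 (adjusted p = 0.0432), so its direction depends on the scaling. Leaving out HP1a replicate 1 or 2 brought calls among the members and among all genes fitted, with 1 HP1a library left. Without scaling 2 members were called higher for HP1b and the median of all genes was 1.02. Relative coverage was higher for HP1b than for HP1a in both libraries of each in 8 members, against 24.5% of all genes fitted, and lower in 7, against 16.5%. On covered share without scaling, 29 of the 38 were higher for HP1b (76.3%), against 58.5% of all genes fitted, and 1 was lower. Every one of the 27 members with HP1a peaks in both WT libraries had HP1b peaks in both as well, so none was emptied (1.47% of all genes). COL7A1 and COL9A3, 2 of the 5 members without HP1a peaks in WT, had HP1b peaks in both WT libraries (40.0%), against 17.9% of all such genes and 34.5% of those within the members' range of lengths. Without HP1a replicate 1 this count was 7 of 13 members. It was 4 of 7 without HP1a replicate 2 and 4 of 5 without HP1b replicate 2. No share over all genes is given for these settings. Across the 41 members other than COL22A1, mean covered shares of HP1b and HP1a in WT had a Pearson r of 0.82 and a Spearman rho of 0.73, as a description over genes.

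The difference between the knock-down effects was tested over all 8 libraries. None of the 42 members passed the threshold in limma, as none did among all 14464 genes fitted (0.0%). An unadjusted p under 0.05 was found for 12 of the 42 members, 2 higher and 10 lower. Over the 14464 genes it was found for 2363, 667 higher and 1696 lower. The difference for COL22A1 was 1.16 on the log2 scale (SE 0.25, limma adjusted p = 0.117), and it was −1.40 without scaling (adjusted p = 0.0366). Leaving out replicate 1 or replicate 2 of the HP1B knock-down gave 5 members past the threshold in each case, all lower, against 5.40 and 5.50% of all genes lower at these settings.

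Among the 11 fibrillar genes, COL1A1 and COL1A2 encode the chains of type I collagen, the main collagen of connective tissue. COL1A1 had no HP1a peak in the HP1B knock-down, against 0.845 and 0% in WT, and HP1b shares of 0 and 8.96% in the HP1A knock-down, against 0 and 3.96% in WT. COL1A2 had no HP1a peak in the HP1B knock-down, against 0 and 4.22% in WT, and HP1b shares of 2.73 and 5.22% in the HP1A knock-down, against 6.71 and 2.42% in WT. Replicates of a group disagreed on whether either gene had any HP1a peak in WT, and the HP1b groups overlapped for both.

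COL3A1 encodes the type III chain of distensible tissues, and COL5A2 lies 19.2 kb from it on chromosome 2 and encodes a chain of type V collagen, which is known to start fibrils. COL3A1 had no HP1a peak in the HP1B knock-down, against 3.29 and 2.78% in WT, and HP1b shares of 7.77 and 2.69% in the HP1A knock-down, against 3.83 and 2.80% in WT. COL5A2 had HP1a shares of 0.0562 and 0.0418% in the HP1B knock-down, against 2.59% in both WT libraries, and HP1b shares of 4.12 and 3.72% in the HP1A knock-down, against 3.33 and 3.68% in WT. For both genes HP1a was lower in both HP1B knock-down libraries. The HP1b libraries of COL3A1 overlapped, and those of COL5A2 were just apart, with the HP1A knock-down higher.

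COL5A1 and COL5A3 encode the other chains of type V collagen. COL5A1 had HP1a shares of 1.43 and 0.618% in the HP1B knock-down, against 1.75 and 0.141% in WT, and HP1b shares of 3.33 and 5.96% in the HP1A knock-down, against 2.46 and 3.09% in WT. COL5A3 had HP1a shares of 0.510 and 2.89% in the HP1B knock-down, against 1.33 and 0% in WT, and HP1b shares of 4.22 and 7.41% in the HP1A knock-down, against 2.20 and 2.54% in WT. HP1a groups overlapped for both genes, and HP1b was higher in both HP1A knock-down libraries of each.

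COL11A1 and COL11A2 encode chains of type XI collagen, which is known from cartilage fibrils. COL11A1 had no HP1a peak in the HP1B knock-down, against 0.727 and 0.737% in WT, and HP1b shares of 1.09 and 0.792% in the HP1A knock-down, against 0.5003 and 0.642% in WT. COL11A2 had HP1a shares of 2.65 and 0.527% in the HP1B knock-down, against 2.93 and 0% in WT. Its HP1b shares were 1.95 and 13.2% in the HP1A knock-down, with no peak in either WT library. COL11A1 was among the members called lower for HP1a, and neither gene passed the threshold for HP1b.

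COL27A1 encodes another fibrillar chain of cartilage. Its HP1a shares were 0 and 0.410% in the HP1B knock-down, against 3.29 and 2.48% in WT, and its HP1b shares were 1.44 and 5.63% in the HP1A knock-down, against 11.6 and 7.16% in WT. Both knock-down groups lay below WT without passing the threshold. The other 2 fibrillar genes were COL2A1, the main cartilage collagen, and COL24A1, with group means between 0 and 7.02%.

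Type IV collagen is the basement membrane collagen, and its autosomal genes lie in head-to-head pairs whose windows overlap, so their values are not independent. COL4A1 and COL4A2, which together encode the common type IV molecule, lie 126 bases apart. COL4A1 had no HP1a peak in the HP1B knock-down, against 1.35 and 1.07% in WT, and HP1b shares of 1.62 and 1.84% in the HP1A knock-down, against 3.95 and 3.62% in WT. COL4A2 had HP1a shares of 0 and 0.415% in the HP1B knock-down, against 2.13 and 1.53% in WT, and HP1b shares of 0.292 and 2.18% in the HP1A knock-down, against 3.64 and 5.22% in WT. Covered shares of both genes lay below WT in every knock-down library, and only the HP1a value of COL4A1 passed the threshold among these 4 tests.

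COL4A3 and COL4A4, 135 bases apart, encode chains of the type IV molecule of the kidney glomerulus. COL4A4 had no HP1a peak in the HP1B knock-down, against 3.64 and 1.71% in WT, and HP1b shares of 3.98 and 8.301% in the HP1A knock-down, against 3.996 and 4.26% in WT. It was called lower for HP1a, and its HP1b groups overlapped in covered share. COL4A3 kept HP1a peaks in all 4 libraries, with mean shares of 0.471% in the HP1B knock-down and 1.15% in WT.

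The beaded filament genes encode type VI collagen, a microfibril found around most cells. COL6A2 had HP1a shares of 1.40 and 0% in the HP1B knock-down, against 0 and 1.03% in WT, and HP1b shares of 10.4 and 10.7% in the HP1A knock-down, against 0.504 and 2.35% in WT. COL6A3 had HP1a shares of 0.304 and 0.864% in the HP1B knock-down, against 2.60 and 3.87% in WT, and HP1b shares of 4.02 and 13.4% in the HP1A knock-down, against 5.95 and 7.50% in WT. HP1b coverage of COL6A2 was far above WT in both HP1A knock-down libraries, with a log2 change of 2.51 (SE 0.67) that did not pass the threshold in limma (adjusted p = 0.147).

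COL6A5 and COL6A6, 31.9 kb apart on chromosome 3, encode alternative chains of type VI collagen. COL6A5 had no HP1a peak in the HP1B knock-down, against 0.479 and 0.818% in WT, and HP1b shares of 5.11 and 5.26% in the HP1A knock-down, against 1.57 and 3.07% in WT. COL6A6 had no HP1a peak in the HP1B knock-down, against 0.726 and 0.848% in WT, and HP1b shares of 2.03 and 4.13% in the HP1A knock-down, against 3.17 and 2.44% in WT. Both were called lower for HP1a, and HP1b of COL6A5 was higher in both HP1A knock-down libraries while that of COL6A6 overlapped. COL6A1 had no HP1a peak in any library.

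COL7A1, the anchoring fibril gene, had HP1a shares of 0 and 1.32% in the HP1B knock-down, with no peak in WT, and HP1b shares of 0.794 and 6.47% in the HP1A knock-down, against 1.00 and 1.07% in WT. COL17A1, the hemidesmosome collagen, had no peak in any knock-down library of either protein, against 1.92 and 0% in the HP1a lists of WT and 0 and 0.853% in the HP1b lists of WT. These genes of the epithelial attachment to the matrix thus had few peaks, and no group of COL17A1 had a peak in both libraries. The short-chain genes COL8A1, COL8A2 and COL10A1 had a pooled covered share of 0.161 ± 0.228% for HP1a in the HP1B knock-down and 1.05 ± 0.462% in WT, and of 1.81 ± 0.173% for HP1b in the HP1A knock-down and 3.19 ± 0.248% in WT (SD, n = 2 each).

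Of the 10 FACIT genes, 3 besides COL22A1 were past the threshold, all lower for HP1a. COL14A1 had no HP1a peak in the HP1B knock-down, against 1.82 and 2.71% in WT, and HP1b shares of 3.90 and 6.54% in the HP1A knock-down, against 4.72 and 5.59% in WT. COL16A1 had no HP1a peak in the HP1B knock-down, against 3.88 and 1.67% in WT, and HP1b shares of 0 and 3.63% in the HP1A knock-down, against 2.52 and 9.34% in WT. COL14A1 is on chromosome 8 like COL22A1, where HP1a peaks were fewer in the HP1B knock-down but still listed in both libraries.

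COL21A1 had no HP1a peak in the HP1B knock-down, against 1.83 and 1.70% in WT, and HP1b shares of 4.80 and 4.999% in the HP1A knock-down, against 6.96 and 5.85% in WT. COL20A1 had HP1a shares of 0 and 4.29% in the HP1B knock-down and HP1b shares of 2.87 and 6.24% in the HP1A knock-down, with no peak in any WT library. COL9A3, which encodes a chain of the cartilage FACIT type IX, was the opposite case for HP1b: it had no peak in the HP1A knock-down, against 4.78 and 4.54% in WT. COL20A1 and COL9A3 had log2 changes of 2.71 and −2.11 in the HP1b comparison, and neither passed the threshold in limma (adjusted p = 0.147 for both).

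COL23A1, a transmembrane collagen on the distal long arm of chromosome 5, was the second most covered member in WT. Its HP1a shares were 2.21 and 0.570% in the HP1B knock-down, against 12.3 and 7.19% in WT, and its HP1b shares were 4.99 and 11.7% in the HP1A knock-down, against 12.5 and 16.2% in WT. Its covered share was below WT in both knock-downs, while that of COL22A1 was below WT for HP1a and above it for HP1b. Relative coverage of COL23A1 had log2 changes of −0.32 for HP1a and −0.72 for HP1b. Neither passed the threshold in limma (adjusted p = 0.818 and 0.234). The surroundings of COL23A1 within 500 kb did not follow its covered share for HP1b. They had 19.7 and 21.2% in the HP1A knock-down and 17.1 and 19.1% in WT. COL13A1, another transmembrane collagen, had HP1a shares of 1.91 and 0.436% in the HP1B knock-down, against 1.28 and 2.97% in WT, and HP1b shares of 1.40 and 5.38% in the HP1A knock-down, against 6.20 and 8.02% in WT.

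COL15A1 and COL18A1 encode multiplexins, basement membrane collagens that carry sugar chains. COL15A1 had HP1a shares of 0.396 and 0.2995% in the HP1B knock-down, against 1.90 and 4.13% in WT, and HP1b shares of 2.69 and 13.2% in the HP1A knock-down, against 9.75 and 10.5% in WT. COL18A1 had HP1a shares of 0 and 0.450% in the HP1B knock-down, with no peak in WT, and its HP1b shares were 3.39 and 3.38% in the HP1A knock-down, against 0.768 and 0% in WT. COL28A1, of the remaining class, had HP1a shares of 0.441 and 1.02% in the HP1B knock-down, against 4.84 and 3.11% in WT, and HP1b shares of 7.05 and 4.32% in the HP1A knock-down, against 10.2 and 6.70% in WT. COL18A1 was higher and without overlap for HP1b with HP1A knocked down, while COL15A1 and COL28A1 overlapped.

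Covered shares of the members went with those of their surroundings. Across the 41 members other than COL22A1, the mean share of the gene and that of the 500 kb on each side had a Pearson r of 0.53 in the HP1a ChIP of the HP1B knock-down and 0.83 in that of WT. In the HP1b ChIP r was 0.39 in the HP1A knock-down and 0.67 in WT. COL23A1 can weigh heavily on these values: its mean HP1a share in WT was 9.74%, where the next member, COL28A1, had 3.98%. Neither r without COL23A1 nor a rank correlation was taken here. The r values are descriptions over genes of shared libraries, and neighbouring genes share part of their surroundings.

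**Figure D4:**
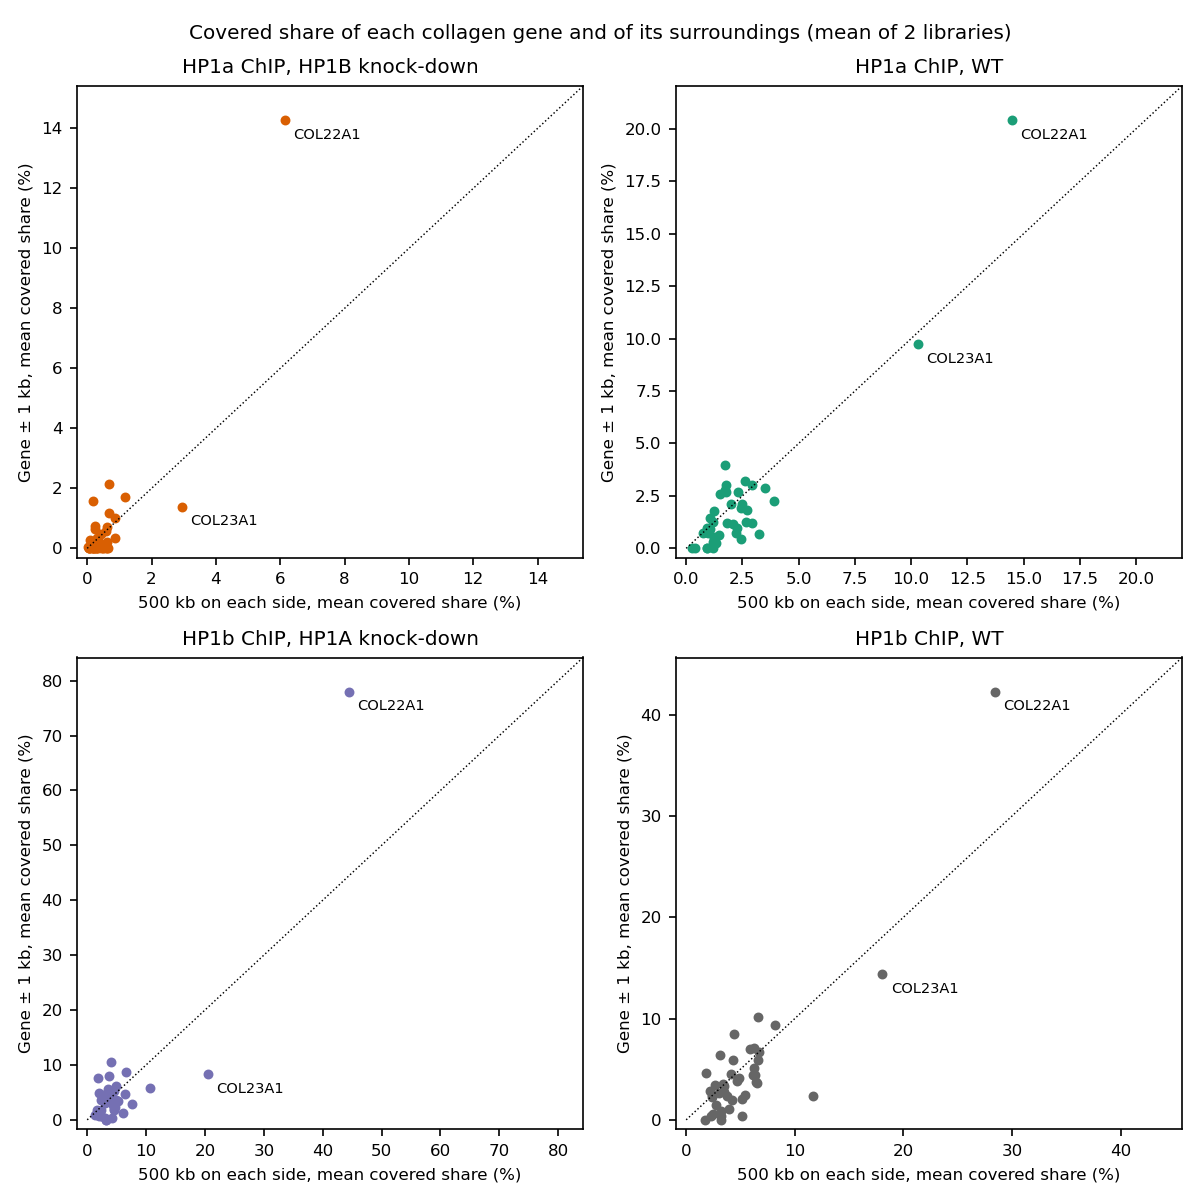
Mean covered share (%) of each collagen gene and 1 kb on each side against that of the 500 kb on each side, 1 point per gene and 1 panel per group, with a dotted line of equality. COL22A1 lies above the line in all 4 panels, and COL23A1 lies below it in all 4.

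Peaks at the gene starts were few. RefSeq promoter windows, from 250 bases before to 50 after a start, were found for 30 of the 42 members. Of these 30 genes, 3 had a peak in a window in at least 1 library (10%), against 13.9% of 15811 genes. The 3 were COL21A1, COL10A1 and COL5A3. No window met a peak in the HP1a lists of the HP1B knock-down, and the 1 HP1a peak in WT met another start of COL21A1. The 250 bases before the start are shown for the windows that met HP1b peaks, as 5′ to 3′ on the minus strand of GRCh38.p14, with CG dinucleotides in capitals. They lie at chr6:56394129-56394378 for COL21A1, chr6:116126133-116126382 for COL10A1 and chr19:10010505-10010754 for COL5A3.
COL21A1: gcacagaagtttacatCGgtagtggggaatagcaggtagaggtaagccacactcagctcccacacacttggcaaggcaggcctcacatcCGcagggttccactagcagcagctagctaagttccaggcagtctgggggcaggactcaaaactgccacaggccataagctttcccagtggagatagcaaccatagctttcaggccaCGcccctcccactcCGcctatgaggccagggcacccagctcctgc
COL10A1: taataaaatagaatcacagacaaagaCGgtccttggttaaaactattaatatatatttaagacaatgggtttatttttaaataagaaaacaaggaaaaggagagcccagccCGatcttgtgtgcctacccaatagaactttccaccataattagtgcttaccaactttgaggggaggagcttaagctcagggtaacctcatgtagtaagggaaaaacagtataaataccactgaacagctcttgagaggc
COL5A3: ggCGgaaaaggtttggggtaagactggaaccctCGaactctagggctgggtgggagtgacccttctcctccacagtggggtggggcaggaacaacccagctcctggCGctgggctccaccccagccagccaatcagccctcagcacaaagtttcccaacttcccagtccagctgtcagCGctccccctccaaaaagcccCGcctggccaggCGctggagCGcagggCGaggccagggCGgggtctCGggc
The COL21A1 window met a peak in replicate 1 of the HP1A knock-down and in both WT libraries, the only one to do so in 3 libraries. The COL10A1 window, of the short-chain collagen of hypertrophic cartilage, met one in replicate 1 of the HP1A knock-down and in WT replicate 2. The COL5A3 window met one in replicate 2 of the HP1A knock-down. The printed stretches of COL21A1, COL10A1 and COL5A3 held 4, 2 and 10 CG dinucleotides, against a median of 16 over the same 250 bases of the members' 41 windows and also of all 22131 windows. The letters TATAAA, searched on both strands, were in the printed stretch of COL10A1, in 19.5% of such stretches of the members and in 8.996% of all of them.

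Genes that act on collagen were described in the same comparison of HP1a with HP1B knocked down. Of 31 genes that process and cross-link collagen, 18 were fitted, 1 was called higher and 6 lower, where 1.7% of all genes fitted were called higher and 26.9% lower. The higher one was ADAMTS2, which removes the amino-terminal propeptide of fibrillar collagens and lies 520 kb from COL23A1 on chromosome 5. ADAMTS2 had HP1a shares of 14.7 and 10.8% in the HP1B knock-down, against 16.4 and 11.2% in WT, so its covered shares overlapped while its relative coverage had a log2 change of 2.61 (SE 0.21, limma adjusted p = 0.0308). Its HP1b shares were 68.7 and 78.6% in the HP1A knock-down, against 29.3 and 33.1% in WT. ADAMTS2 and COL22A1 both had higher relative HP1a coverage with HP1B knocked down, and for both the HP1b covered share was above WT in both HP1A knock-down libraries.

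LOXL1 and LOXL2, lysyl oxidase family genes that cross-link collagen and elastin, and TMEM38B, an endoplasmic reticulum channel gene, were among the lower ones and had no HP1a peak in the HP1B knock-down. Of 13 collagen receptor genes 7 were fitted, and ITGA11, an integrin chain that binds type I collagen, was called lower. Of 19 laminin and other basement membrane genes 16 were fitted and 6 were called lower, among them the laminin chain genes LAMA1 and LAMA4 and the basement membrane gene FREM1. These counts stand beside 26.9% of all genes fitted that were called lower. LAMA1 had no HP1a peak in the HP1B knock-down, against 3.92 and 1.74% in WT. The median log2 change was −1.48 over the fitted processing genes, 0.19 over the receptors and −1.88 over the laminin list, against −1.03 over all genes fitted. No gene of these lists passed the threshold in the other comparisons, where no gene of any kind did.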

How the data were processed

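HP1a and HP1b ChIP-seq peak lists of 8 MCF10A libraries were used, grouped by the labels into 4 groups of 2. Per the labels' protocols, cells were cross-linked with formaldehyde and sequenced as paired-end reads on a NextSeq 500. Trimmomatic, Bowtie2, SAMtools and MACS3 were used with hg38, per the submitters' processing notes. Neither versions, peak settings, filters nor an input library are named in these sources. The deposited broad peak lists give a score per peak, its −log10 p, its −log10 q and its fold enrichment (a ratio), all as the authors' caller wrote them. Each library has its own deposited list. The collagen genes and the other lists were chosen with earlier results of these data known.

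Peaks on chromosomes 1 to 22 and X were merged within a library and counted over each gene of RefSeq (GRCh38.p14) and 1 kb on each side. A fitted gene had a peak in at least 2 libraries of the comparison. limma 3.58.1 (R 4.3.3, variance trend) tested log2 of relative coverage after adding the 10th percentile of its values above 0 as a pseudocount, with Benjamini-Hochberg adjustment over all genes fitted. Log2 changes are therefore on that scale and understate changes of genes with little coverage. The fit and the counting of covered bases were tested on simulated data. Named genes were the members past the threshold, the 6 most covered in each group and 8 chosen by name (COL1A1, COL1A2, COL3A1, COL4A1, COL4A2, COL5A1, COL7A1 and COL17A1), with others given by class or count. COL4A3, COL9A3 and COL18A1 were added after their values were seen. No 2 replicates had the same peaks: between 0 and 16 peaks of a pair had identical bounds.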

Additional observations from a re-analysis of the deposited data

How the results depend on the processing

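The 11 collagen genes called for HP1a with HP1B knocked down did not hold under most alternatives. There were 0 with lists shortened to one length, with a −log10 p of at least 4, with a pseudocount multiplied by 4 and with no filter. At each of these settings no gene of all those fitted was called either. With a −log10 q of at least 2, 3 of 7 members fitted were called, all lower, where 68.9% of all genes fitted were called lower. With no scaling 19 of 30 were called, all lower, where 52.1% of all genes fitted were called lower. With the replicate block 1 was called, COL22A1, where 0.270% of all genes fitted were called higher and 0.0% lower. Leaving out 1 library gave 0 to 15. The counts stayed within 1.5 times with a flank of 2 kb, with no flank and with all 8 libraries in the fit. For HP1b with HP1A knocked down, 1 gene was called with the replicate block and 0 to 10 without 1 library, against 0. For HP1b against HP1a in WT, 2 were called with no scaling and 0 to 1 without 1 library, against 0. For the difference between the knock-down effects, 8 were called with no filter, 7 with no scaling and 0 to 5 without 1 library, against 0. Over all genes fitted, the replicate block called 0.931% higher and 2.19% lower for HP1b with HP1A knocked down. In WT, 1.44% were called higher for HP1b with no scaling. For the difference, 1.16% were called higher and 2.53% lower with no filter, and 0.083 and 4.11% with no scaling. The cause was not tested in any of these alternatives.

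Genes emptied of HP1a with HP1B knocked down numbered 6 with lists shortened to one length and 6 with a −log10 q of at least 2, against 10, and 11 to 16 without 1 library. Genes filled numbered 5 with lists shortened to one length and 2 with a −log10 p of at least 4, against 0, and 0 to 3 without 1 library. For HP1b with HP1A knocked down, genes emptied were 0 with a −log10 p of at least 4 and 0 with a −log10 q of at least 2, against 1, and 1 to 5 without 1 library, while genes filled were 6 other genes with a −log10 q of at least 2, against 2. For HP1b against HP1a in WT, genes emptied were 3 with a −log10 p of at least 4 and 1 with a −log10 q of at least 2, against 0, and 0 to 1 without 1 library. Genes filled there were 0 with lists shortened to one length, 0 with a −log10 p of at least 4 and 1 with a −log10 q of at least 2, against 2, and 2 to 7 without 1 library. Over all genes, 21.8% were emptied of HP1a with shortened lists and 92.6% at that −log10 q. Another 2.98% were filled with shortened lists and 0.593% at that −log10 p. For HP1b with HP1A knocked down, 11.2 and 7.35% were emptied at the −log10 p and −log10 q, and 3.14% filled at the latter. In WT the emptied shares were 14.2 and 16.2%, and the filled shares 4.07, 2.07 and 1.63% in the order above. Without 1 library the number of eligible members could also change, and no share over all genes is given for those counts.

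The log2 change of COL22A1 turned to −0.52 in the first comparison with no scaling. In WT it turned to 0.24 with lists shortened to one length and to 1.05 with no scaling, against −0.23. The difference between the knock-down effects turned to −1.48 with a −log10 p of at least 4, −2.52 with a −log10 q of at least 2 and −1.40 with no scaling, against 1.16. None of the 10 members called lower in the first comparison changed sign in the alternatives where it was fitted. For the 9 with no HP1a peak in either HP1B knock-down library a change of sign was hardly possible. Their constant sign therefore says nothing about how firm these calls are.

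The replicate numbers do not pair the libraries by the labels, and deviations of libraries with the same number had correlations of 0.02, 0.05 and −0.01 in the 3 comparisons. Peak lists carry no depth, so a place with no listed peak is not shown to lack the protein.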
